A study of Mus musculus with 4 samples.

Results

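The type 2 and innate lymphoid effector cytokines examined here were the 9 genes Il4, Il5, Il9, Il13, Il21, Il10, Areg, Il3 and Csf2. These genes, and the gene lists set beside them, were chosen with earlier results of these data known. Probes were taken by gene name: each non-control probe that the array files name for one of the 9 genes was used. This gave 9 probes on 36 spots, out of 39429 probes on 43020 non-control spots for 31093 gene names. Il4, Il10 and Csf2 each had 1 probe printed on 10 spots, and the other 6 genes had 1 probe on 1 spot.

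Gene expression was measured in whole mouse lung on Agilent 1-colour arrays after ovalbumin (OVA)-induced allergic airway inflammation. The 4 groups were Pla2g3-/- (KO) antigen challenged, Pla2g3-/- control, Pla2g3+/+ (WT) antigen challenged and Pla2g3+/+ control lung, with 1 array each. Each array carried total RNA pooled from 4 samples, so there was no replicate array and no error between mice. Sensitization was by injection of 10 µg OVA with 1.3 mg aluminum hydroxide into the abdomen on days 0 and 14, and challenge was by 1% OVA aerosol for 30 min on each of days 26, 27 and 28. Lungs were taken 48 h after challenge. The same protocol text stands for all 4 groups, so the treatment of the controls cannot be read from the labels, and neither can strain, sex and age. In whole tissue, fewer cells of a type and less RNA per cell cannot be told apart.

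Type 2 cytokines are secreted mainly by T helper 2 cells and by group 2 innate lymphoid cells, which answer antigen and epithelial alarm signals. Interleukins 4, 5 and 13 are known in the allergic lung for IgE switching, eosinophil growth and mucus production. In the mouse their genes lie together on chromosome 11, on which Il3 and Csf2 also lie farther along.

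Values came from 2 sources, the authors' value table and the scanner files, and were compared only within a source. The 2 sources disagreed for arrays of 1 name. Over 43020 spots, log2 values correlated at 0.911 to 0.919 between array and column of 1 name, at 0.911 to 0.917 between different names, and at 0.985 or more within either source. Throughout, a level is a probe's signal as a percentage of the 75th percentile of its own array, and a difference is on the log2 scale. In the table all 5 markers of the lung's air sacs lay above the 75th percentile, Ager for example at 1213% to 1327%. On the scanner arrays Sftpa1 (2222% to 3395%), Lamp3 (460% to 541%) and Sftpb (150% to 591%) lay above the 75th percentile, and Sftpc and Ager (2.47% to 3.48%) below it. The surfactant gene Sftpc was at 12990% (KO challenged), 12470% (KO control), 13160% (WT challenged) and 12090% (WT control) of the 75th percentile in the table, and at 83.4%, 61.0%, 63.2% and 39.8% on the scanner arrays in that order. The endothelial gene Cldn5 was at 2269% to 2637% in the table and 5.398% to 17.7% on the scanner arrays, while the ciliated cell gene Foxj1 was at 183% to 239% and at 872% to 1168%. The 75th percentile intensity was 1808 to 1986, and 79.2% to 82.1% of spots were above background in either source. All 4 scanner arrays were on 1 slide and in 1 scan, and no spot was saturated.

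The targeted gene did not follow the genotype labels. The brighter of 2 Pla2g3 probes was at 104% and 87.2% in the KO-labelled challenged and control columns of the table, against 4.11% and 3.95% in the WT-labelled ones. On the scanner arrays it was at 210% and 110% on the KO-labelled challenged and control arrays, against 14.1% and 12.1% on the WT-labelled ones. Where these probes lie relative to the deleted part is unknown here, so the arrays are called KO-labelled and WT-labelled.

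The probes of Il4, Il13, Il5 and Il9 are shown because the results turn on them. Each is 60 bases long and its first 30 bases are printed, on the strand of the transcript. The Il4 probe lies at chr11:53426076-53426135, the Il13 probe at chr11:53444828-53444887, both on the minus strand, and the Il5 probe at chr11:53538468-53538527 on the plus strand. The Il9 probe lies at chr13:56580678-56580737 on the minus strand. These positions are those of the array files, on mm9. The capitals mark ATTTA, the core of AU-rich elements, which are known to shorten the life of cytokine mRNAs.
Il4 probe: gtccaagtccacatcactgaaagacttcct
Il13 probe: tcactgaacaaacttttcattgactgtcaa
Il5 probe: cccccagtttactccaggaaaaacagatgt
Il9 probe: aaagccgaccatgaagacagatgctATTTA
Within the full 60 bases, ATTTA occurred in 4 of the 9 cytokine probes and in 8.01% of all 39429 probes. It was looked for after the sequences were seen. The other probes lay at chr11:54060894-54060952 (Csf2, minus), chr11:54078587-54078646 (Il3, minus), chr5:91570090-91570149 (Areg, plus), chr1:132920943-132921002 (Il10, plus) and chr3:37121681-37121740 (Il21, minus). Whether a probe falls in coding sequence or in a UTR was not analysed here.

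Upstream sequence is shown for Il4, Il13 and Il5, the chromosome 11 genes that were at least 2-fold higher with challenge in the KO-labelled pair of both sources. The 250 bases before the outermost start of each gene are from RefSeq on GRCm38.p6, a different build from the probe positions. They span chr11:53618666-53618915 (Il4, minus strand), chr11:53634703-53634952 (Il13, minus strand) and chr11:53720544-53720793 (Il5, plus strand). Capitals mark words read on both strands for factors known to act at cytokine genes: AGATAA for the GATA factors, GGAAAA for NFAT, TGANTCA for AP-1, and for STAT a TTC followed after 4 free bases by the letters GAA. For the GATA factors AGATAG, then TGATAA, and lastly TGATAG were added after the sequences were seen.
Il4: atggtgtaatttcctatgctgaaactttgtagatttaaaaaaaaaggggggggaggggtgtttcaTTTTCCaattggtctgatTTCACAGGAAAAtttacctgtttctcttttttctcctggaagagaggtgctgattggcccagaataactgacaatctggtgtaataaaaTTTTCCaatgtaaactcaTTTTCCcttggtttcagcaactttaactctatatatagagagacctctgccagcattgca
Il13: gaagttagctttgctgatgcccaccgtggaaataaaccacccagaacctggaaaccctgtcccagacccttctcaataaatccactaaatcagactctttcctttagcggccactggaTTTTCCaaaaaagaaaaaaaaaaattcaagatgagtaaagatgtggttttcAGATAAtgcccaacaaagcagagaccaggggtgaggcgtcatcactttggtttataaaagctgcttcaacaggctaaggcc
Il5: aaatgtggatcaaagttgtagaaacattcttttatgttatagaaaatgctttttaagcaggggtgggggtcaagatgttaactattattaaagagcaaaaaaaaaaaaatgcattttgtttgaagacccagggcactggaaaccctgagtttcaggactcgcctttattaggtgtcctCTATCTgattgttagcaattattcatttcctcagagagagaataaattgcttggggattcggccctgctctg
The Il4 sequence held 4 GGAAAA words, starting 185, 161, 78 and 60 bases upstream, and 1 STAT word starting 167 bases upstream that overlaps the second of them. A second entry for Il4, at its other start, held none of these and 1 of the GATA words, at 80 bases upstream. Il13 held AGATAA at 81 and GGAAAA at 132 bases upstream, and Il5 held AGATAG at 72. Of the 8 cytokine genes with an entry, taken at the outermost start, GGAAAA was present in 4 (Il4, Il9, Il13 and Il21), AGATAA in 3 (Il13, Il3 and Csf2), the STAT word in 2 (Il4 and Il9) and the AP-1 word in 1 (Il9). Any of the 4 GATA words was present in 4 (Il5, Il13, Il3 and Csf2). Areg held none of the words. Among all 32851 promoter entries of this length the shares were 20.4% for GGAAAA, 9.99% for AGATAA, 26.5% for any of the 4 GATA words, 5.85% for the STAT word and 6.75% for the AP-1 word. A match is a description of the letters only.

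In the KO-labelled pair of the value table, challenge went with higher Il13, Il4, Il5 and Il21 and left Areg, Il3 and Csf2 within 1.15-fold of the control. A difference was called at 2-fold or more with at least 1 of the 2 arrays above background, without a test, since each group had 1 array. By this rule 4 of the 8 cytokines above background were higher and 0 lower, while 2.61% of 25074 genes were higher and 0.77% lower. The median over the 8 was 0.77, with 2 of the 8 at background in the control column, and over all genes 0.02. In the WT-labelled pair 3 of 8 were higher (Il13, Il21 and Il3) and 0 lower, where 1.72% of 25662 genes were higher and 0.627% lower. There the median was 0.44, against 0.01 over all genes.

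On the scanner arrays the KO-labelled pair differed more widely. Of 8 cytokines above background on at least 1 of its arrays, 7 were higher (Il4, Il5, Il9, Il13, Areg, Il3 and Csf2) and 0 lower, where 3.88% of 25513 genes were higher and 3.37% lower. The median was 2.62, with 3 of the 8 as bounds, and -0.06 over all genes. In the WT-labelled pair 3 of 7 were higher (Il5, Il13 and Csf2) and 0 lower, where 1.93% of 25853 genes were higher and 1.69% lower. The median there was 0.59, against -0.03 over all genes.

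**Figure D1:**
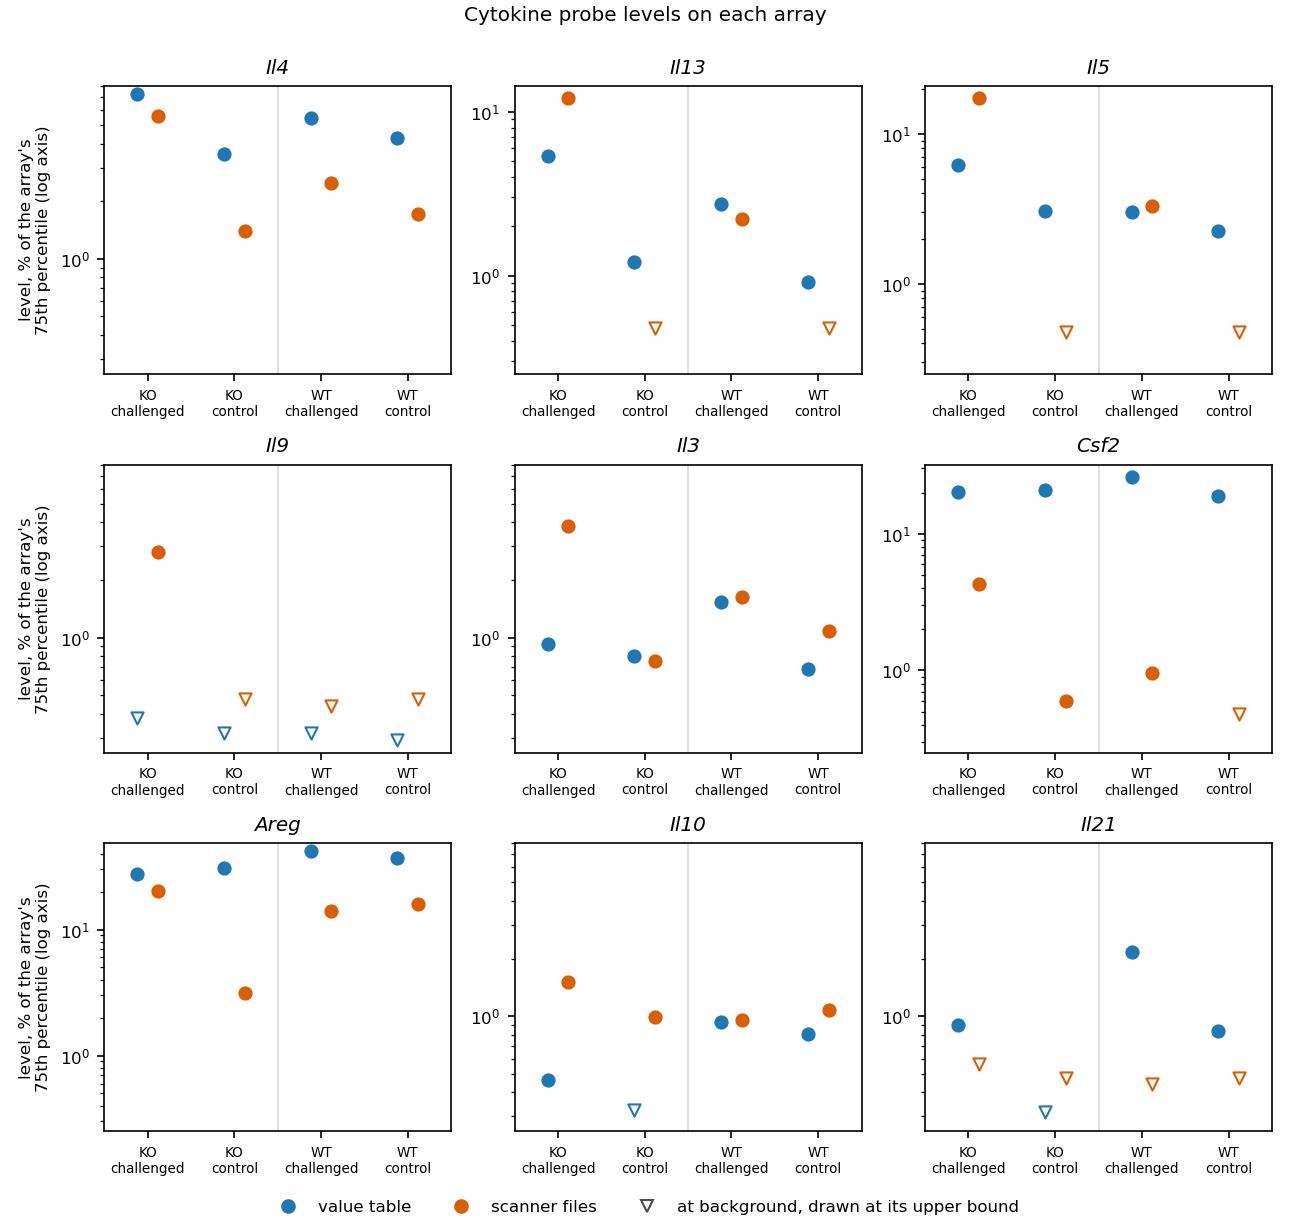
Level of each cytokine probe on each array, in percent of the array's 75th percentile on a log axis. The value table is in blue and the scanner files are in orange. Open triangles are arrays at background, drawn at the floor or at the measured level where that is higher. In the scanner files Il13 stood at 12.2% on the KO-labelled challenged array and was at background on both control arrays.

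The interleukin 13 gene, whose product drives mucus production and airway hyperreactivity, was at 5.39% and 1.21% in the KO-labelled challenged and control columns of the table, against 2.76% and 0.917% in the WT-labelled ones. Both challenged columns stood above both control columns. Its challenge difference was 2.16 (4.46-fold) in the KO-labelled pair and 1.59 (3.004-fold) in the WT-labelled pair, at positions 87 of 25074 and 187 of 25662 genes from the highest.

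On the scanner arrays Il13 was at 12.2% on the KO-labelled challenged array and at 2.22% on the WT-labelled challenged array, and was at background on both control arrays. An array at background was raised to the lowest signal above background on that array, 0.441% to 0.565%, and a fold against it is given as a lower bound. A spot at background can lie somewhat above this floor, as did a Csf2 spot at 0.546% on the KO-labelled control array. Il13 was at least 25.7-fold higher with challenge in the KO-labelled pair and at least 4.67-fold higher in the WT-labelled pair. With normexp background correction and quantile normalization these came to 2.27 and 0.78 on the log2 scale, and the second was no longer called.

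The Il5 product is the growth and survival factor of eosinophils. In the table its probe was at 6.19% and 3.05% in the KO-labelled challenged and control columns, against 2.99% and 2.24% in the WT-labelled ones. The KO-labelled challenged column stood alone, and the other 3 lay close together. The challenge difference was 1.02 (2.03-fold) in the KO-labelled pair and 0.42 in the WT-labelled pair, and the first came to 0.94 with quantile normalization, just under the 2-fold line.

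On the scanner arrays Il5 was at 17.4% on the KO-labelled challenged array and 3.30% on the WT-labelled challenged array, with both controls at background. It was at least 36.5-fold higher with challenge in the KO-labelled pair, position 6 of 25513 genes, and at least 6.93-fold higher in the WT-labelled pair. With normexp and quantile normalization these came to 2.67 and 1.035 on the log2 scale. Thus both sources had Il5 highest on the KO-labelled challenged array.

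Il4, which encodes the cytokine that directs T helper 2 differentiation and IgE switching, was at 7.23% and 3.55% in the KO-labelled challenged and control columns of the table, against 5.46% and 4.30% in the WT-labelled ones. Its 10 spots spanned 6.86% to 7.83%, 3.35% to 3.76%, 5.11% to 5.82% and 3.85% to 4.91% in that order, so the spots of the 4 columns did not overlap. Repeated spots of 1 array show the precision of reading that array and not the spread between mice. The challenge difference was 1.03 (2.04-fold) in the KO-labelled pair and 0.34 (1.27-fold) in the WT-labelled pair, and the first came to 0.94 with quantile normalization.

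In the scanner files, Il4 was at 5.60% and 1.40% on the KO-labelled challenged and control arrays, against 2.49% and 1.72% on the WT-labelled ones. The challenge difference was 1.997 (3.99-fold, spot error 0.25) in the KO-labelled pair and 0.54 (1.45-fold, spot error 0.24) in the WT-labelled pair. The spot error is the scanner software's own estimate for the spots. With normexp and quantile normalization the difference in the KO-labelled pair came to 0.90, under the 2-fold line.

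A group of 3 neighbouring Il4 spots read higher than the other 7 on all 4 scanner arrays. On the KO-labelled control array the 3 read 2.79% to 3.45% and the other 7 read 0.868% to 1.31%, and on the WT-labelled control array they read 3.02% to 3.45% and 1.104% to 1.501%. In the table the same 3 spots lay within or next to the range of the others. Without them the challenge difference was 2.35 (5.10-fold) in the KO-labelled pair and 0.74 (1.66-fold) in the WT-labelled pair.

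**Figure D2:**
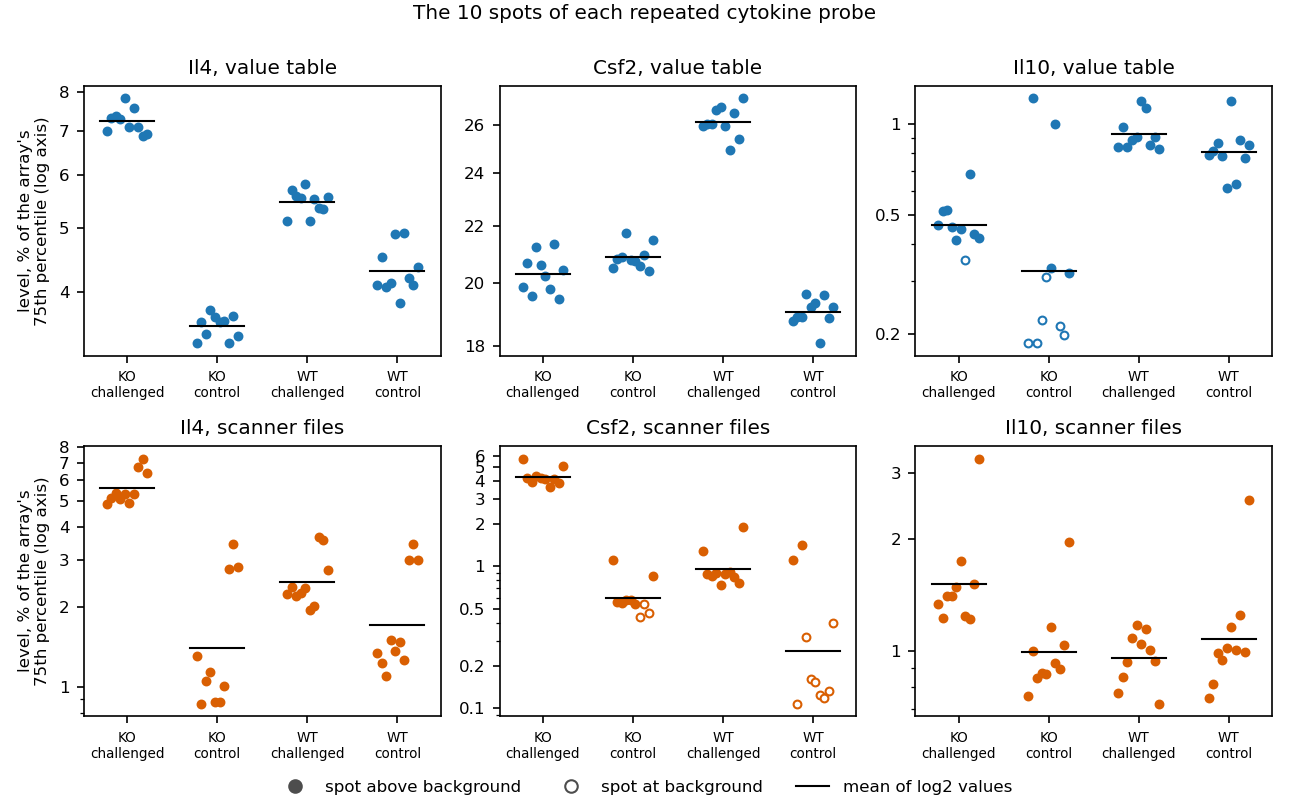
Levels of the 10 spots of the Il4, Csf2 and Il10 probes on each array, in percent of the array's 75th percentile on log axes; filled points are above background, open points at background, and bars are means of log2 values. For Il4 in the scanner files 3 spots stand above the other 7 on each array, at 2.79% to 3.45% against 0.868% to 1.31% on the KO-labelled control array.

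Il9 encodes a growth factor of mast cells that also acts on innate lymphoid cells. Its probe was above background on 1 of the 8 arrays and columns, the KO-labelled challenged scanner array, at 2.81%. There it was at least 5.91-fold above the KO-labelled control and at least 6.38-fold above the WT-labelled challenged array. With normexp and quantile normalization these came to 0.69 and 0.79 on the log2 scale, and neither was called. In all 4 table columns it was at background, with upper bounds of 0.291% to 0.381%, so no fold is given there.

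Interleukin 3 and GM-CSF, the products of Il3 and Csf2, act on mast cells, basophils, eosinophils and macrophages through a shared receptor chain. Il3 was at 0.921% and 0.801% in the KO-labelled challenged and control columns of the table, against 1.54% and 0.682% in the WT-labelled ones. The WT-labelled challenged column stood highest. Challenged minus control came to 0.20 in the KO-labelled pair and 1.18 (2.26-fold) in the WT-labelled pair.

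The scanner arrays gave Il3 the opposite order of pairs. It was at 3.84% and 0.758% on the KO-labelled challenged and control arrays, against 1.62% and 1.08% on the WT-labelled ones. With challenge the difference was 2.34 (5.07-fold, spot error 0.29) in the KO-labelled pair, or 0.83 with normexp and quantile normalization, and 0.59 (spot error 0.27) in the WT-labelled pair.

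For Csf2 the table had 20.3% and 20.9% in the KO-labelled challenged and control columns, against 26.2% and 19.0% in the WT-labelled ones. The 10 spots of the WT-labelled challenged column, at 25.0% to 27.2%, lay above all spots of the other 3 columns. Challenged minus control came to -0.04 in the KO-labelled pair and 0.46 (1.38-fold) in the WT-labelled pair.

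By the scanner files, Csf2 was highest on the KO-labelled challenged array. It was at 4.28% and 0.599% on the KO-labelled challenged and control arrays, against 0.955% on the WT-labelled challenged array. The WT-labelled control was at background with 2 of 10 spots above it, and the KO-labelled control had 7 of 10. With challenge the difference was 2.84 (7.14-fold, spot error 0.35) in the KO-labelled pair, or 0.97 with normexp and quantile normalization. In the WT-labelled pair Csf2 was 2.01-fold higher with the control set to its floor. This is not a strict bound, since the 2 spots above background on that control read 1.115% and 1.403%. With the median of the 10 spots the difference was 0.89 on the log2 scale, which is no call.

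Areg encodes amphiregulin, an epidermal growth factor receptor ligand made by innate lymphoid cells, T cells and epithelium and known for tissue repair. In the table it was at 27.5% and 30.6% in the KO-labelled challenged and control columns, against 42.4% and 36.9% in the WT-labelled ones. The challenge differences were -0.16 and 0.20, neither near 2-fold. As scanned, it was at 20.3% and 3.16% on the KO-labelled challenged and control arrays, against 14.0% and 16.1% on the WT-labelled ones. The KO-labelled control array stood apart from the other 3. Challenged minus control came to accordingly 2.69 (6.43-fold, spot error 0.21) in the KO-labelled pair and -0.20 (spot error 0.20) in the WT-labelled pair. The first came to 1.97 with normexp and quantile normalization.

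Interleukin 10, a suppressor of inflammation made by regulatory and helper T cells and macrophages, was at 0.463% in the KO-labelled challenged column of the table and at background in the KO-labelled control column, against 0.929% and 0.809% in the WT-labelled challenged and control columns. In the KO-labelled control column 4 of its 10 spots were above background. With challenge the difference was 0.51 in the KO-labelled pair and 0.20 in the WT-labelled pair. The first is not a strict bound, because the control spots at background were kept at their measured values. From the scanner files, Il10 was at 1.51% and 0.994% on the KO-labelled challenged and control arrays, against 0.956% and 1.08% on the WT-labelled ones. Those differences, 0.61 (spot error 0.30) and -0.17 (spot error 0.31), were under 2-fold.

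Il21, whose product is the follicular helper T cell cytokine for B cells, was at 0.900% in the KO-labelled challenged column of the table and at background in the KO-labelled control column, against 2.16% and 0.832% in the WT-labelled challenged and control columns. It was at least 2.85-fold higher with challenge in the KO-labelled pair and 2.60-fold higher in the WT-labelled pair. On all 4 scanner arrays it was at background, with upper bounds of 0.441% to 0.565%.

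**Figure D3:**
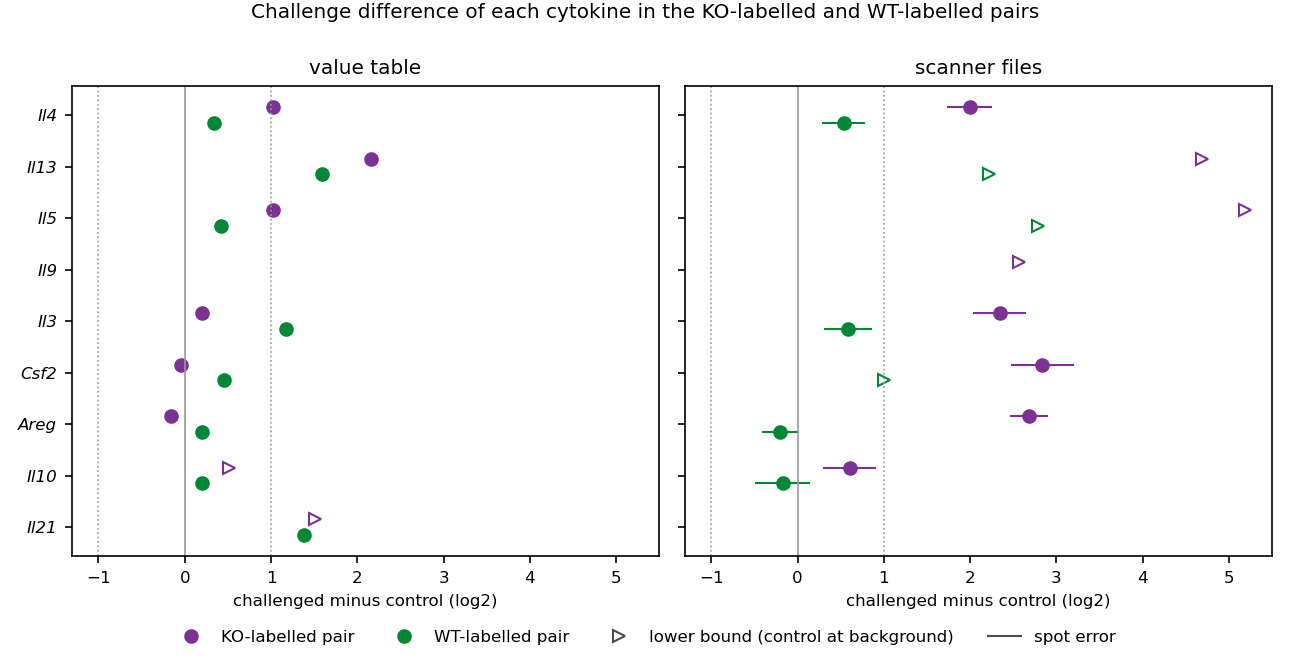
Challenged minus control difference (log2) of each cytokine in the KO-labelled pair (purple) and the WT-labelled pair (green), per source. Open triangles are lower bounds, bars are spot errors and dotted lines mark 2-fold. The bounds of Il10 in the table and of Csf2 in the scanner files are not strict. Il13 lies past 2-fold in both pairs of both sources, at 2.16 and 1.59 in the table and at least 4.69 and 2.22 in the scanner files.

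The difference between labels was read on the challenged arrays. Among table values, 1 of 8 cytokines was at least 2-fold higher on the KO-labelled array (Il5) and 2 were lower (Il21 and Il10), where 1.71% of 25433 genes were higher and 2.47% lower. The difference was 1.05 (2.07-fold) for Il5, 0.97 (1.96-fold) for Il13 and 0.41 for Il4. Il21 was at -1.26 and Il10 at -1.01, and Il3, Areg and Csf2 lay between -0.74 and -0.37. The Il10 difference came to -0.95 with quantile normalization, under the 2-fold line. The median over the 8 was -0.50, against 0.01 over all genes.

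Of 8 cytokines in the scanner files, 6 were higher on the KO-labelled challenged array than on the WT-labelled challenged one (Il4, Il5, Il9, Il13, Il3 and Csf2) and 0 lower. Of 25780 genes, 3.88% were higher and 2.58% lower. The differences were 2.46 for Il13 (5.51-fold, spot error 0.22), 2.40 for Il5 (5.27-fold, spot error 0.21), 2.16 for Csf2 (4.48-fold, spot error 0.27), 1.25 for Il3 and 1.17 for Il4. Il10 at 0.66 and Areg at 0.54 were under 2-fold. The median over the 8 was 1.71, with Il9 as a bound, against -0.05 over all genes. With normexp and quantile normalization Il5 (1.73) and Il13 (1.58) were still called, and Il4 (0.62), Il9 (0.79), Il3 (0.54) and Csf2 (0.85) were not. Il3, Csf2, Areg and Il10 thus had opposite signs in the 2 sources, while Il4, Il5 and Il13 were higher on the KO-labelled array in both.

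Between control arrays, 0 of 8 cytokines in the table were at least 2-fold higher on the KO-labelled side and 2 were lower (Il21 and Il10), where 1.51% of 25489 genes were higher and 2.33% lower. Il21 was at least 2.63-fold lower, a bound. Il10 was 2.49-fold lower by the mean of its 10 spots, of which 4 were above background in the KO-labelled control column. The Il10 spots at background were kept at their measured values, so this is not a strict bound. Il5 was at 0.45, Il13 at 0.40 and Il4 at -0.28. By the scanner files, 0 of 5 were higher and 1 was lower, Areg, where 3.23% of 25658 genes were higher and 1.92% lower. Areg was at -2.35 (5.09-fold lower, spot error 0.21), or -1.67 with normexp and quantile normalization. The comparisons with challenge in the KO-labelled pair and between the control arrays share the KO-labelled control array.

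The challenge effect averaged over both labels was fitted with limma on challenge and label, with 1 degree of freedom left for the error. With 1 array per group, that error comes from the difference between the challenge responses of the 2 pairs. It is not a spread between mice. No cytokine passed at an adjusted p of 0.05, and neither did any other gene, that is 0% of 26044 genes in the table and 0% of 26343 on the scanner arrays. At an unadjusted p under 0.05 there were 2612 and 2608 genes. The lowest adjusted p of a cytokine in this limma fit was 0.391 for Il21 in the table (average 1.44, with 1 array at its floor) and 0.484 for Il5 on the scanner arrays (average 3.99, with both controls at their floor). For Il13 it was 0.484 in the table (average 1.87) and 0.485 on the scanner arrays. With a variance trend 72 table genes and 4 scanner genes passed, none of them a cytokine, and Il13 had an adjusted p of 0.0629 in the table by limma.

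The challenge differences were also read along chromosome 11, at the 5 cytokine genes and at 10 other genes of the same stretch. The Il13 probe lies 18.75 kb, the Il5 probe 112.4 kb, the Csf2 probe 634.8 kb and the Il3 probe 652.5 kb from the Il4 probe. In the KO-labelled pair of the table the 5 cytokine genes spanned -0.04 to 2.16 (median 1.02), and the 9 others that were measured there spanned -0.15 to 0.82 (median -0.04). As scanned, the KO-labelled pair gave 1.997 to 5.19 (median 2.84) at the 5 cytokine genes and -1.21 to 0.32 (median -0.06) at 10 others. In the WT-labelled pair the cytokine genes spanned 0.34 to 1.59 in the table and 0.54 to 2.79 on the scanner arrays, against -0.49 to 0.44 and -0.62 to 0.32 for the others.

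Among the genes between, Rad50, a DNA repair gene next to Il13, was at -0.08 and -0.12 in the KO-labelled and WT-labelled pairs of the table and at -0.28 and -0.07 on the scanner arrays. The largest averaged challenge effects of this list were at Pdlim4, a cytoskeletal adaptor gene (0.82 and 0.44 in the 2 pairs of the table), and at Slc22a4, a carnitine and ergothioneine transporter gene (-1.21 and -0.59 on the scanner arrays). The drop of Slc22a4 in the KO-labelled pair of the scanner files was the single difference of at least 2-fold among the 10 genes in these comparisons.

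**Figure D4:**
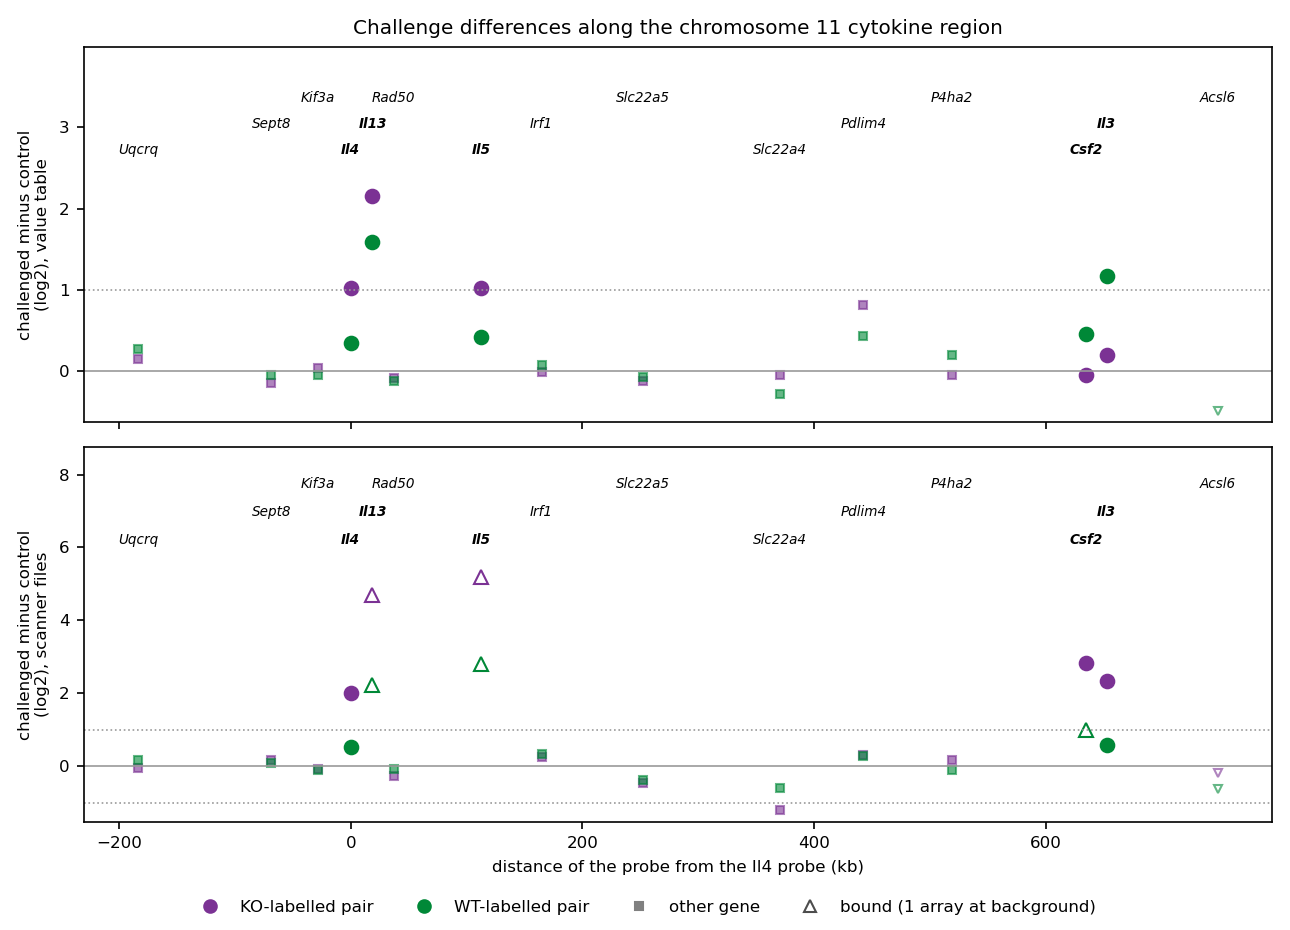
Challenged minus control difference (log2) against the distance of each probe from the Il4 probe (kb) on chromosome 11, for the value table (top) and the scanner files (bottom). Circles are cytokine genes, squares other genes, open triangles bounds (not strict for Csf2) and dotted lines 2-fold. In the KO-labelled pair of the scanner files the 5 cytokine genes lie at 1.997 to 5.19 and the 10 others at -1.21 to 0.32.

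Of 14 genes for receptors of these cytokines, 2 were at least 2-fold higher with challenge in the KO-labelled pair of the table and 0 in the WT-labelled pair. They were Il13ra2, the decoy receptor of interleukin 13, at 3.17% and 1.57% in the KO-labelled challenged and control columns (difference 1.01), and Il9r, at 1.86% and 0.656% (difference 1.51). The corresponding differences in the WT-labelled pair were 0.35 and 0.61. Il5ra, the eosinophil receptor chain, was at 0.67 and -0.05, and Csf2ra at 0.40 and 0.19.

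From the scanner files, 3 receptor genes were higher with challenge in the KO-labelled pair and 1 was lower. Csf2rb, the shared chain of the receptors for interleukins 3 and 5 and GM-CSF, was at 156% and 28.0% on the KO-labelled challenged and control arrays, against 42.7% and 33.7% on the WT-labelled ones (differences 2.48 and 0.34). Its mouse paralogue Csf2rb2 was at 1.82 and 0.30, and Il4ra, which serves interleukins 4 and 13, at 1.27 and 0.08. The 2 paralogues are highly similar in sequence, so their probes may share signal. In the table these 3 genes lay between -0.13 and 0.20 in both pairs. Il21r was lower with challenge in both pairs of the scanner files, at -1.97 and -1.20, and Il2rg, the common gamma chain, was at -0.69 and -0.89. Between challenged arrays of the scanner files 5 receptor genes were higher on the KO-labelled side (Il2rg, Csf2rb, Csf2rb2, Il21r and Il10ra) and Il3ra was lower, and in the table none differed by 2-fold.

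Medians of the receptor list in the KO-labelled and WT-labelled pairs were 0.13 and 0.05 in the table and 0.26 and -0.06 on the scanner arrays. The receptor genes not yet named, Il13ra1, Il10rb and Egfr, the receptor of amphiregulin, lay between -0.24 and 0.23 in both pairs of both sources.

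Of 14 transcription factors and signalling genes that act on type 2 cytokine genes, none differed by 2-fold with challenge in the table. The largest averaged effects were for Nfatc2 (0.63 in the KO-labelled pair and 0.32 in the WT-labelled pair), Irf4 (0.67 and 0.25), Maf (0.41 and 0.20) and Batf (0.22 and 0.32). Gata3, the master regulator of T helper 2 and group 2 innate lymphoid cells, was at 118% and 106% in the KO-labelled challenged and control columns, against 156% and 121% in the WT-labelled ones.

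Gata3 in the scanner files was lower with challenge in the KO-labelled pair, at 12.0% and 61.1% on the challenged and control arrays, against 6.74% and 7.23% on the WT-labelled ones. Its difference was -2.35 in the KO-labelled pair and -0.10 in the WT-labelled pair. The KO-labelled control array also carried the most RNA of immature thymocyte markers: the 6 markers summed to 121% and 1995% on the KO-labelled challenged and control arrays, against 46.2% and 53.1% on the WT-labelled ones, all 6 above background on every array. Rag1 alone was at 270% on the KO-labelled control array and at 3.23% to 17.6% on the others. Irf4 was higher in the same pair (1.26), and Rora was at -0.91 and -0.53 in the 2 pairs. The part of thymocyte RNA in the values of the KO-labelled control array, which enters each KO-labelled challenge difference of the scanner files, was not tested.

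Markers of other cells were set beside the cytokines in the same way. The 9 T helper cell markers summed to 995% and 870% in the KO-labelled challenged and control columns of the table, against 1375% and 1229% in the WT-labelled ones, and to 508% and 1706% on the KO-labelled scanner arrays, against 411% and 535% on the WT-labelled ones. Cd40lg was at background in 3 of the 4 table columns and on every scanner array. Of the 8 markers tested in the KO-labelled scanner pair, 6 were at least 2-fold lower with challenge (Cd3d, Cd3e, Cd3g, Cd28, Cd2 and Cd5). The KO-labelled control array, with the sum of 1706%, is also the one with the most immature thymocyte marker RNA. The part of thymocyte RNA in this sum was not tested. The 7 markers of group 2 innate lymphoid cells, all above background, summed to 433% and 310% in the KO-labelled columns, against 474% and 361% in the WT-labelled ones, and to 121% and 213% on the KO-labelled scanner arrays, against 109% and 137% on the WT-labelled ones. Several of them, such as Gata3 and Rora, are also expressed by other cells. With challenge, 3 of the 7 were at least 2-fold higher in the KO-labelled pair of the table (Il1rl1, Il2ra and Il17rb) and 0 in the WT-labelled pair. In the scanner files 0 were higher in either pair, and Gata3 was lower in the KO-labelled pair. The 11 markers of mast cells and basophils summed to 889% and 865% in the KO-labelled columns, against 598% and 641% in the WT-labelled ones, with Ms4a2 at background on every array of both sources. Hdc, which other cells also express, made up most of each sum, at 840%, 814%, 553% and 603% in that order. The scanner sums were 1783% and 1545% on the KO-labelled arrays, against 1520% and 1502% on the WT-labelled ones, again mostly Hdc. No marker of this list differed by 2-fold in any comparison of either source.

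Neutrophil markers, like most of the cytokines, were highest on the KO-labelled challenged scanner array. All 5 were at least 2-fold higher with challenge in both scanner pairs, whereas 7 of 8 cytokines were in the KO-labelled pair and 3 of 7 in the WT-labelled pair. The 5 markers summed to 5643% and 857% on the KO-labelled challenged and control arrays, against 1582% and 473% on the WT-labelled ones. In the table they summed to 3265% and 3428% in the KO-labelled columns, against 3391% and 2403% in the WT-labelled ones. S100a9 made up most of each table sum. With challenge in the KO-labelled pair of the table, Retnlg was higher (1.39) and the other markers lay between -0.44 and 0.03. Eosinophil markers summed to 261% and 162% in the KO-labelled columns, against 184% and 191% in the WT-labelled ones, and to 17.1% and 13.7% on the KO-labelled scanner arrays, against 12.3% and 15.4% on the WT-labelled ones. Siglecf, also a macrophage marker, made up a large part of the table sums, at 102.5%, 126.1%, 101.2% and 129.3% in that order. It differed with challenge by -0.30 and -0.35 in the KO-labelled and WT-labelled pairs of the table, Cebpe by 2.61 and 1.12, and Ccr3 by 1.44 and 0.24. Prg2, an eosinophil granule protein gene, differed with challenge by 2.67 and -0.02 in the KO-labelled and WT-labelled pairs of the table, and it was lower with challenge in both scanner pairs, at -1.04 and, as a bound, -1.25. Epx, the eosinophil peroxidase gene, was at 2.18% and 0.379% in the KO-labelled columns and at background in both WT-labelled ones and on all 4 scanner arrays. The part of any of these cells in the cytokine differences was not tested.

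Of the 6 genes for the epithelial alarmins interleukins 33 and 25 and TSLP and for their receptors, 2 were higher with challenge in the KO-labelled pair of the table and 0 in the WT-labelled pair. Il1rl1, the interleukin 33 receptor, was at 106% and 41.4% in the KO-labelled challenged and control columns, against 81.2% and 43.5% in the WT-labelled ones (differences 1.35 and 0.90). Il17rb, the interleukin 25 receptor, was at 8.21% and 3.33%, against 5.60% and 3.75% (differences 1.30 and 0.58). Il33 was at 0.12 and 0.62 in the 2 pairs. By the scanner files, Il33 was higher in the KO-labelled pair (1.14) and at 0.15 in the WT-labelled pair, and Tslp was above background on 1 array, the KO-labelled challenged one, at 1.96% (a difference of at least 1.91 from its control). Il1rl1 was there at 0.18 and 0.10, and Il17rb at -0.43 and 0.02. Between the control scanner arrays Il17rb was already higher on the KO-labelled side (1.51).

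Lung genes known as targets of these cytokines were higher in larger numbers. Of 18, 12 were at least 2-fold higher with challenge in the KO-labelled pair of the table and 12 in the WT-labelled pair, with medians of 2.11 and 1.68, and 0 were lower. The largest averaged effects were for Ccl24, an eosinophil-attracting chemokine gene (5.17 in the KO-labelled pair and 3.13 in the WT-labelled pair), Retnlb (4.13 and 4.12), the mucin gene Muc5ac (4.07 and 3.54) and Itln1 (3.26 and 3.42), both Retnlb and Itln1 being products of goblet cells. Between challenged columns 6 were higher on the KO-labelled side, among them Ccl24 (1.68) and Retnlb (1.64), and 2 were lower, Ccl17 (-1.17) and Ccl22 (-1.09), chemokine genes that attract T helper 2 cells. Between control columns 4 of these 6 were already higher (Retnlb at 1.63, Chil4, Arg1 and Itln1), and Ccl17 (-1.72) and Ccl22 (-1.58) were lower.

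As scanned, 12 of the 18 were higher with challenge in the KO-labelled pair and 9 of 17 in the WT-labelled pair, with 0 and 1 lower and medians of 1.26 and 1.01. Ccl17 was at 4.45 and 2.69 in the 2 pairs, and Retnla, a product of alternatively activated macrophages and epithelium, at 2.52 and 2.68. The cytokine signalling inhibitors Cish and Socs3 were at 3.36 and 3.10 in the KO-labelled pair and at 1.02 and 1.064 in the WT-labelled pair. In the table both lay between -0.19 and 0.13. Ccl24 had opposite signs in the 2 pairs of the scanner files, 1.37 and -1.36.

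**Figure D5:**
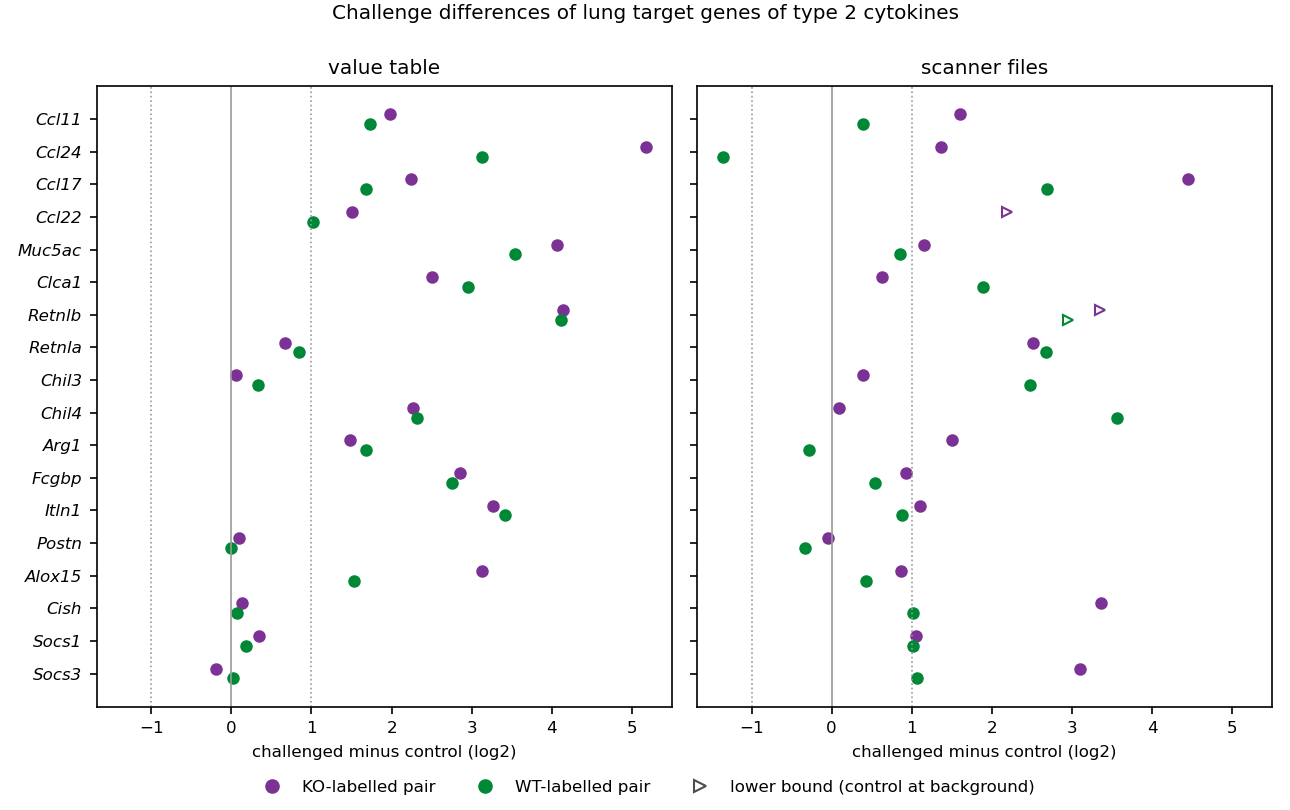
Challenged minus control difference (log2) of 18 lung target genes of type 2 cytokines in the KO-labelled pair (purple) and the WT-labelled pair (green), per source; open triangles are lower bounds and dotted lines mark 2-fold. Retnlb lies past 2-fold in both pairs of both sources, as bounds in the scanner files, whereas Cish and Socs3 lie near 0 in the table and at 3.36 and 3.10 in the KO-labelled pair of the scanner files.

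Cytokines of other lymphocyte programmes gave a comparison. Of 8, none was 2-fold higher with challenge in the KO-labelled pair of the table, and in the WT-labelled pair Il17a was higher (1.03) and Il17f lower (-1.07). Between challenged columns Ifng (-1.26) and Il17a (-1.53) were lower on the KO-labelled side. From the scanner files, 5 of 8 were higher with challenge in the KO-labelled pair, namely Il17a (4.90), Il2 (3.03), Ifng (2.29), Tnf (1.94) and Lta (1.49), and Tnf was higher in the WT-labelled pair (1.13). The same 5 were higher on the KO-labelled challenged array than on the WT-labelled challenged one, Il17a by 4.03. The scanner differences of the KO-labelled challenged array therefore covered cytokines outside the type 2 set as well.

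Genes whose pattern was most like a cytokine were taken by the Pearson correlation over 8 values, the 4 arrays in each source centred on the mean of the source, among 608 genes above background on all 8 with a range of at least 2-fold in each source. The 8 values share their 4 sample names and come from 2 sources, so the correlation is a description. For Il4 the nearest were Clca3a2 (0.978), Ms4a4a (0.976) and Serpina3g (0.972). For Il13, with 2 arrays at their floor, they were Btbd17 (0.987), Il4 (0.971) and Retnlg (0.970), and for Il5, likewise, Retnlg (0.981), Chil5 (0.949) and Irg1 (0.934). Retnlg is among the neutrophil markers above. For Il3 the nearest were Irg1 (0.959), Itgax (0.933) and Rgs1 (0.933). For Areg the highest values were lower, with LOC102636907 at 0.863, Serpina3n at 0.819 and Krtap11-1 at 0.764.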

How the data were processed

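The deposited scanner files carry, for each spot, the processed intensity of Agilent Feature Extraction (version 11.5.1.1 per the submitters' processing notes), with background correction switched off (0) and probe positions on mm9, per the file headers. The authors' table has 1 linear signal for each spot, and the 75th percentile of each column is about 1.00. No source used here says how it was computed. Sample columns left unused numbered 0. The 2 sources were analysed separately.

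Log2 values were set relative to the array's 75th percentile, and the spots of a probe were averaged. Scanner spots were above background by the software's flag, and table spots when over 5 times the median of 153 negative controls. A probe counted when most of its spots did. For each gene and source the probe of highest mean was used. Arrays at background were raised to their floor where they lay under it, which gives bounds. For a repeated probe with some spots above background the bound is not strict. Groups came from the sample titles, and precision is limited by 1 array per group. The challenge effect was fitted with limma 3.58.1 in R 4.3.3 (lmFit and eBayes, challenge and genotype label). Adjustment was by Benjamini-Hochberg across the genes detected in a source. The fit was also run on simulated data without a label effect, and no result here rests on that run. Tables and figures used pandas 2.3.3, numpy 2.4.6 and matplotlib 3.10.9 (Python 3.11.15).

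Named genes were the 9 cytokines, Pla2g3, the receptors, up to 4 genes per list by averaged challenge effect, and the 3 most alike. Others were named after their values were seen. The members and lists were chosen with earlier results of these data known. Alternatives were normexp (offset 50) with quantile normalization, quantile normalization, median scaling, filters, the mean of probes, the median of spots (added after seeing the data), 3-fold and spot error rules, the other source, and limma with a variance trend or robust eBayes.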

Additional observations from a re-analysis of the deposited data

Results flagged for a closer look

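In 4 cases a cytokine above background on all 4 arrays of a source had challenge differences of opposite sign in the KO-labelled and WT-labelled pairs. With 1 array per group the difference between pairs was not tested. In the scanner files the response of Areg in the KO-labelled pair minus that in the WT-labelled pair was 2.886 (2.69 and -0.20), and that of Il10 was 0.779 (0.61 and -0.17). In the value table it was -0.354 for Areg (-0.16 and 0.20) and -0.5 for Csf2 (-0.04 and 0.46). The KO-labelled control array of the scanner files, on which Areg was lowest at 3.16%, also had the highest level of immature thymocyte markers, and the part of these in the result was not tested.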

How the results depend on the processing

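Over the 60 single cytokine differences, 434 alternative values kept their side of the 2-fold line, 40 dropped under the line, 4 passed it and 4 reversed. Sign changes of differences under 2-fold are not among these 4 reversals. Between the challenged arrays, Areg was at 0.54 by the scanner and -0.62 by the table, and Il10 at 0.66 and -1.01. For the WT-labelled pair, Areg was at -0.20 and 0.20, and Il10 at -0.17 and 0.20, in that order. The 4 reversals were scanner calls read in the value table: Areg (-0.16) and Csf2 (-0.04) in the KO-labelled challenge pair, and Il3 (-0.74) and Csf2 (-0.37) between the challenged arrays. The cause was not tested. In the table, the 4 cytokines higher in the KO-labelled pair became 2 with quantile normalization, 2 with median scaling and 1 at 3-fold, and the 3 in the WT-labelled pair became 1 at 3-fold. The 3 that differed between challenged columns became 1 when all 4 columns had to be above background and 0 at 3-fold, and the 2 between control columns became 0 under each. In the scanner files, the 7 in the KO-labelled pair became 3 with normexp and quantile normalization together and 3 when all 4 arrays had to be above background, and the table had 4, with Il21 among them. The 3 in the WT-labelled pair became 1, 0 and, with 3 times the spot error, 1. The 6 between challenged arrays became 2 and 2, and the table had 3, of which only Il5 was among the 6. Between control arrays the scanner files had 1 (Areg), or 2 without a filter, and the table had 2 others (Il21 and Il10). Requiring all 4 arrays leaves fewer cytokines to count. Limma calls, 0 in each source, became 72 (table) and 4 (scanner files) with a variance trend, and 1 in the scanner files with normexp and quantile normalization. None was a cytokine.

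Counts over all genes ran from 277 to 1917 around 847 (KO-labelled challenge pair), 250 to 1533 around 602 (WT-labelled pair), 512 to 2185 around 1064 (challenged columns) and 478 to 2033 around 980 (control columns) in the table. In the scanner files they ran from 716 to 2843 around 1851, 191 to 1676 around 936, 481 to 2795 around 1664 and 466 to 2082 around 1321 in the same order. The highest were without a filter, and the lowest at 3-fold in the table and with normexp and quantile normalization in the scanner files. Those 2 changes together moved the share of higher among called genes from 53.3% to 69.6% in the WT-labelled pair and from 62.8% to 77.04% between control arrays, and quantile normalization alone gave 56.9% and 65.6%. No paired analysis was possible because each group has 1 array, no array could be left out, and the slide was not run as a block because there is 1 slide. In the scanner files Il21 lay at background on all 4 arrays, Il9 on all but the KO-labelled challenged one, and Il5 and Il13 on both controls. Only bounds are given there. Csf2 lay at background on the WT-labelled control, where some of its spots were above background, so its bound is not strict.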
